A study of Mus musculus with 6 samples.

Results

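The TRIM family was taken as the genes whose symbol begins with Trim and a digit, which gave 44 of the 13912 genes in the deposited table. RNA was sequenced in 3 tumour libraries and 3 cultured libraries of 4T1-Luc2-RFP cells, a BALB/c mouse mammary carcinoma line with luciferase and red fluorescent protein reporters. The tumour libraries came from cells sorted by fluorescence (FACS) out of tumours in the mammary gland, labelled MIND, and the cultured libraries came from the same line grown in dishes and never injected. All 3 tumour titles carry the words Right and FACS, and no cultured title does. Sorting and growth in the gland therefore cannot be told apart. All 6 libraries share the line, the strain and the reporters, so no group stands for another tumour model or for normal mammary cells. The labels give no age, time after injection, or number of animals, and do not state that replicate libraries had separate animals or dishes as their source. The p-values below therefore cover the spread of these 6 libraries alone, which could be purely technical.

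TRIM proteins share an N-terminal tripartite motif of a RING finger, B-boxes and a coiled coil, and most act as E3 ubiquitin ligases, which choose the protein that receives ubiquitin. Their C-terminal domain sets the subfamily. A PRY-SPRY domain marks many members that respond to interferon and act against viruses, a PHD finger with a bromodomain marks regulators of chromatin, and NHL repeats mark regulators of RNA and the cytoskeleton. Not every member is a ligase, since TRIM14, TRIM16, TRIM29 and TRIM44 lack a RING finger. Rodents carry an expanded cluster of TRIM5, TRIM12, TRIM30 and TRIM34 genes. Family members named otherwise, such as Pml and Mid1, fall outside the symbol rule and are given as companions.

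A list of 16 members was counted as interferon-induced from general knowledge of the family, and 12 of them are in the table, Trim6, Trim12c, Trim14, Trim21, Trim25, Trim26, Trim30a, Trim30b, Trim30d, Trim34a, Trim34b and Trim56. The list was chosen with earlier results of these data known, so the split by it is a description and not an independent test. The remaining 32 members in the table are called the others. The deposited values are log2 CPM, read counts set relative to a scaled library total, from which whole reads were recovered. Libraries held 35448588 to 41469090 reads. No gene in the table had fewer than 61 reads over the 6 libraries, so a gene with next to no cultured reads is in the table through its tumour reads and had to be higher there. Counts of members are descriptions for that reason. A change is the difference of mean log2 CPM, tumour minus cultured, with limma's moderated standard error (SE) and a Benjamini-Hochberg adjusted p over all 13912 genes. A gene is called where that p is under 0.05.

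Short stretches of promoter sequence are shown first, because a motif of interferon-responsive genes was frequent among the interferon-induced members. RefSeq promoters on GRCm38.p6, 300 bases each, run from 250 bases before a transcript start to 50 bases from it, and 33 of the 44 members had at least 1. They were searched on both strands for GAAANNGAAA, the core of the interferon-stimulated response element (ISRE), a motif of promoters that respond to interferon. The core was found for 6 of 11 interferon-induced members (54.5%) and for 1 of the 22 others (4.55%), against 3.82% of the 10510 genes of the table that had a promoter. It was also found for 15 of 25 other interferon response genes (60%). Genes called higher held it in 5.93% of cases, genes called lower in 3.00% and genes not called in 2.97%. A match of letters does not show that a factor binds there.

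The 60 bases around each match are given 5′ to 3′ on the strand of the gene, with the matched bases in capitals; a match on the opposite strand reads TTTCNNTTTC.
Trim21, chr7:102565433-102565492, minus strand: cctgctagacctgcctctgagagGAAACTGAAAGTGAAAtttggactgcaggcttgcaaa
Trim26, chr17:36836963-36837022, plus strand: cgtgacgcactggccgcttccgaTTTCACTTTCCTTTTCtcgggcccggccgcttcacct
Trim12c, chr7:104353345-104353404, minus strand: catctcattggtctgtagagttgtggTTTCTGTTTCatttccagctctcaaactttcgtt
Trim30a, chr7:104465196-104465255, minus strand: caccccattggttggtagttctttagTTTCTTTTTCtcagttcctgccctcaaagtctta
Trim30d, chr7:104507857-104507916, minus strand: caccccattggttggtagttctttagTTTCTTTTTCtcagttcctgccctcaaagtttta
Trim34a, chr7:104244441-104244500, plus strand: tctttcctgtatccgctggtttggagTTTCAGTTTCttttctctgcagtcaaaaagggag
Trim2, chr3:84212789-84212848, minus strand: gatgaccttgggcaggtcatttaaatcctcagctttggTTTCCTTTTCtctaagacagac

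Trim21 and Trim26 each held a pair of overlapping matches that together spanned 16 bases. The match began 36 bases before the transcript start of Trim30a, 41 bases before that of Trim30d and 29 bases before that of Trim12c. It began 160 bases before the start of Trim26, 13 bases after that of Trim21 and 10 bases after that of Trim34a. Trim30a had a further promoter with a match. Trim2 is the only one of the 22 others with a match, which lay in 1 of its several promoters, and it was lower in tumour libraries. The only promoter of Trim30b, chr7:104358597-104358896, lies inside the gene as annotated in GENCODE M21, 104355382 to 104369884, and not at its 5′ end. Its identity of 49.9% to the promoter of Trim30a therefore does not compare the 5′ ends of the 2 genes. The whole promoters of Trim30a and Trim30d are shown because these members had the largest changes. They were 90.8% identical over 305 aligned positions.
Trim30a, chr7:104465144-104465443, minus strand: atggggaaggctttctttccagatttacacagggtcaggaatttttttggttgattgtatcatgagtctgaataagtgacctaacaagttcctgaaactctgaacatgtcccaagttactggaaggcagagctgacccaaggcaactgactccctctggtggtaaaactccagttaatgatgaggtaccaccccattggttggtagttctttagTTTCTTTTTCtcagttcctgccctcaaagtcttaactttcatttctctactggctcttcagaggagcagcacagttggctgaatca
Trim30d, chr7:104507800-104508099, minus strand: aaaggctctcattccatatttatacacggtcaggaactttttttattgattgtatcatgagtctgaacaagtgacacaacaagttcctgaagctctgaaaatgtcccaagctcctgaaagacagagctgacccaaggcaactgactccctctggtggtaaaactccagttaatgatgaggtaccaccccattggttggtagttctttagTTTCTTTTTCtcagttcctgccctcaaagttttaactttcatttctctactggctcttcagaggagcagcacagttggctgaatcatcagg

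Across the family, 16 of the 44 members were called higher in tumour libraries, 9 were called lower and 19 did not pass. Across all genes, 29.5% were called higher and 18.8% lower, 48.2% in all, so the family's share of called members (56.8%) was near the background. The split within it was not even. Of the 12 interferon-induced members 10 were called higher (83.3%) and 0 lower, with a median change of 2.57. Trim30b and Trim30d, which had no cultured reads, lie above that median also at their bounds. Of the 32 others 6 were called higher (18.8%) and 9 lower (28.1%), with a median change of -0.003, against 0.08 for all genes. The groups did not overlap, with tumour libraries higher, in 10 of the 12 and in 7 of the 32, against 34.6% of all genes. They did not overlap, with tumour libraries lower, in 0 of the 12 and in 9 of the 32, against 25.2% of all genes. In either direction, 59.8% of all genes had groups that did not overlap. Tumour libraries were higher in 64.0% of called members as deposited, in 32.1% after quantile normalization and in 77.3% when libraries were scaled to epithelial genes. After quantile normalization 7 interferon-induced members were called higher and 1 lower, and 2 others higher and 18 lower. For all genes the shares of called genes that were higher in tumour libraries were 61.1% as deposited, 35.2% after quantile normalization and 83.2% with epithelial scaling.

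**Figure D1:**
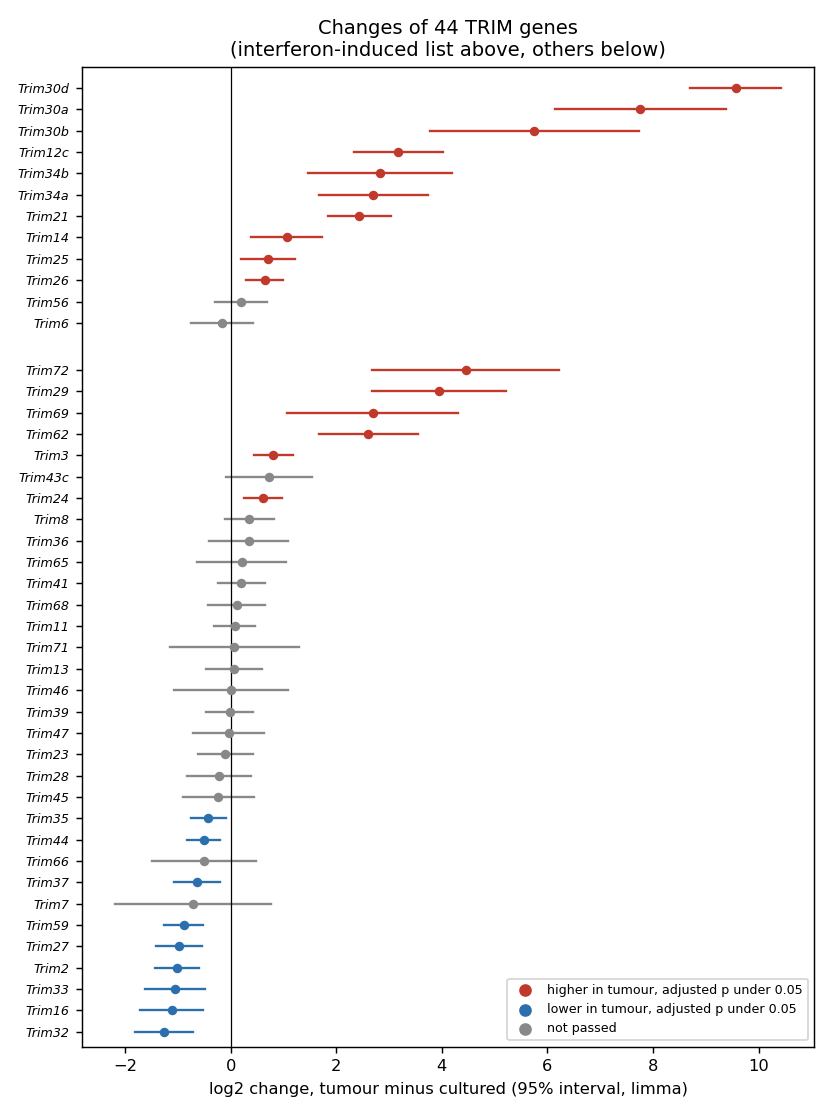
Log2 change, tumour minus cultured, of the 44 TRIM genes, with limma's 95% interval as a line. The 12 interferon-induced members stand above, with 10 called higher, and the 32 others below, with 6 called higher and 9 called lower.

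The same tumour libraries held more RNA of host cell marker genes. All 14 macrophage and monocyte markers were called higher, with a summed level of 7189 to 10700 CPM in tumour libraries against 27.9 to 38.6 CPM in cultured ones. The sum over 8 neutrophil markers was 1465 to 4471 CPM in tumour libraries against 86.3 to 101 CPM in cultured ones (8 called higher, Retnlg at 0 reads in culture). The sum over 8 dendritic cell and MHC class II markers was 5551 to 7854 CPM against 2.96 to 18.7 CPM (8 called higher, Flt3 at 0 reads in culture). The sum over 10 fibroblast markers was 6993 to 8999 CPM in tumour libraries against 25.3 to 54.1 CPM in cultured ones (10 called higher), and that over 8 endothelial markers was 202 to 244 CPM against 33.1 to 53.0 CPM (8 called higher, Emcn and Cldn5 at 0 reads in culture). Of 10 lymphocyte markers 4 were tested and called higher, with a sum of 5.61 to 7.87 CPM against 0 to 0.0221 CPM, and Cd4, Cd8a and Klrb1c were at 0 reads in culture. For markers with next to no cultured reads the filter of the table fixed the direction. Among them are the 4 lymphocyte markers, Retnlg, Flt3, Emcn and Cldn5. Across all genes 29.5% were called higher and 18.8% lower. Of 19 epithelial markers 2 were called higher and 7 lower, with a sum of 3231 to 3760 CPM in tumour libraries and 3661 to 4365 CPM in cultured ones. The part of host cells in the changes of TRIM genes was not tested. In bulk RNA, fewer cells of a type and less RNA per cell cannot be told apart.

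The members with the largest changes lie next to each other on chromosome 7. Trim30a, an interferon and Toll-like receptor target that in mouse restrains NF-kB signalling, spans 104409025 to 104465193 on the minus strand of GRCm38. It stood at 93.3, 54.1 and 64.8 CPM in tumour libraries 1, 2 and 3, and at 0.399, 0.773 and 0.0861 CPM in cultured libraries 1, 2 and 3. Its change was 7.76 (SE 0.70, limma adjusted p = 5.82e-05), from 8093 tumour reads against 55 cultured reads. Trim30d, from 104470014 to 104507849, stood at 11.9, 7.78 and 8.70 CPM in tumour libraries and at 0 reads in all 3 cultured libraries. Against a floor of 3 reads over the cultured group it was at least 385-fold higher (limma adjusted p = 1.17e-06). Trim30b, from 104355382 to 104369884, also had 0 cultured reads and stood at 1.74, 0.148 and 1.03 CPM in tumour libraries. It was at least 38.6-fold higher (limma adjusted p = 0.000983), on 109 tumour reads, with tumour library 2 far below the other tumour libraries. For both genes the direction was fixed by the filter of the table.

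Trim12c, a mouse relative of the retroviral restriction factor TRIM5 of primates, spans 104338754 to 104353362 on chromosome 7. It stood at 38.4, 22.2 and 29.5 CPM in tumour libraries against 3.61, 4.66 and 1.98 CPM in cultured ones, a change of 3.18 (SE 0.37, limma adjusted p = 0.000244). Every tumour library lay above every cultured one, and the gene had 434 cultured reads, so both groups were measured. Trim34a and Trim34b, mouse counterparts of the interferon-responsive finger protein TRIM34, were low in both groups. Trim34a stood at 3.36, 2.58 and 2.74 CPM in tumour libraries against 0.680, 0.508 and 0.230 CPM in cultured ones, a change of 2.70 (SE 0.44, limma adjusted p = 0.00168). Trim34b stood at 1.93, 1.304 and 2.08 CPM in tumour libraries against 0.375, 0.376 and 0.0861 CPM in cultured ones, a change of 2.83 (SE 0.58, limma adjusted p = 0.00531). After quantile normalization the calls for Trim30b, Trim34a and Trim34b were lost, and the change of Trim34b turned to -0.11. Trim6, which lies beside them from 104218793 to 104235152 and makes free ubiquitin chains that activate IKK-epsilon in human cells, did not pass. It stood at 3.01, 3.00 and 3.51 CPM in tumour libraries and 3.33, 3.98 and 3.36 CPM in cultured ones, with overlapping groups and a change of -0.16 (95% interval -0.75 to 0.43, limma adjusted p = 0.629).

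**Figure D2:**
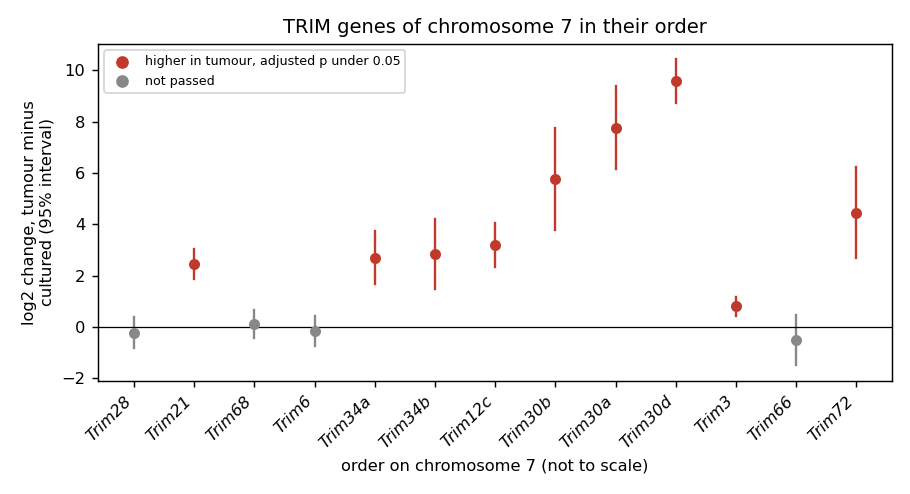
Log2 change, tumour minus cultured, with limma's 95% interval, of the 13 TRIM genes of chromosome 7 in their order along it, not to scale. From Trim34a to Trim30d the 6 neighbours had changes of 2.70, 2.83, 3.18, 5.75, 7.76 and 9.57, while Trim6 before them had -0.16 and Trim3 after them 0.81; fitted changes of Trim30b and Trim30d rest on 0 cultured reads.

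Reads of these paralogs can be hard to place. In GENCODE M21 transcripts, 33.7% of the different 50-base stretches of Trim12c also occurred in other genes, mainly Trim5 (24.2%) and Trim12a (6.38%). The share was 59.7% for Trim34a and 56.8% for Trim34b, which share most of it with each other, and 6.53% for Trim30a, 7.49% for Trim30d and 1.51% for Trim30b. Trim34a also overlaps an antisense transcript by 609 exon bases, and the sources used here do not say whether counting used strand. Values of Trim12c, Trim34a and Trim34b are therefore uncertain as single genes. Trim5, Trim12a, Trim30c and Trim38 of the list were not analysed here.

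Interferon-induced members outside this cluster had smaller changes than those called within it. Trim21, a cytosolic receptor for antibody Fc regions that sends antibody-bound virus for degradation, spans 102557921 to 102565486 on chromosome 7. It stood at 21.2, 16.2 and 18.7 CPM in tumour libraries against 4.18, 3.53 and 2.70 CPM in cultured ones, a change of 2.44 (SE 0.25, limma adjusted p = 0.000136). Trim14, a RING-less adaptor of the mitochondrial antiviral signalling protein MAVS, spans 46493781 to 46536141 on chromosome 4. It stood at 26.04, 27.4 and 24.2 CPM in tumour libraries against 13.3, 17.4 and 8.18 CPM in cultured ones, a change of 1.06 (SE 0.29, limma adjusted p = 0.0173). The groups did not overlap, but leaving out tumour library 1, 2 or 3 ended the call at changes of 1.06, 1.02 and 1.11 (limma adjusted p of 0.0598, 0.0632 and 0.0524, in a range of 0.00145 to 0.0632 over 14 alternatives). Its exons overlap those of other genes on the opposite strand by up to 1356 bases.

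Trim25, the ligase that activates the RNA sensor RIG-I and works with the antiviral protein ZAP, had the second highest level per length of the family in tumour libraries, 40.3 CPM per kilobase of exon there against 24.4 in cultured ones. It spans 88999376 to 89020293 on chromosome 11, and stood at 258, 169 and 269 CPM in tumour libraries against 122, 165 and 134 CPM in cultured ones. Tumour library 2 was barely above cultured library 2. The change was 0.71 (SE 0.22, limma adjusted p = 0.0308), and the call ended without tumour library 1 (adjusted p = 0.115), tumour library 3 (0.123) or cultured library 1 (0.0915), with changes of 0.61, 0.58 and 0.61, in a range of 0.00513 to 0.123 over 14 alternatives. It also ended with libraries centred on their medians (0.102), scaled by plain totals (0.0705) or fitted without the variance trend (0.0557). Trim26, which lies in the major histocompatibility region from 36837134 to 36859398 on chromosome 17, varied little between tumour libraries. It stood at 68.0, 66.1 and 68.0 CPM in tumour libraries against 49.7, 41.9 and 38.4 CPM in cultured ones, a change of 0.65 (SE 0.15, limma adjusted p = 0.00945). Trim56, a ligase tied to the STING and TLR3 pathways, stood at 33.1 ± 5.48 CPM in tumour libraries and 29.0 ± 5.62 CPM in cultured ones (SD, n = 3 each). Its groups overlapped, with a change of 0.20 (95% interval -0.29 to 0.69, limma adjusted p = 0.472).

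**Figure D3:**
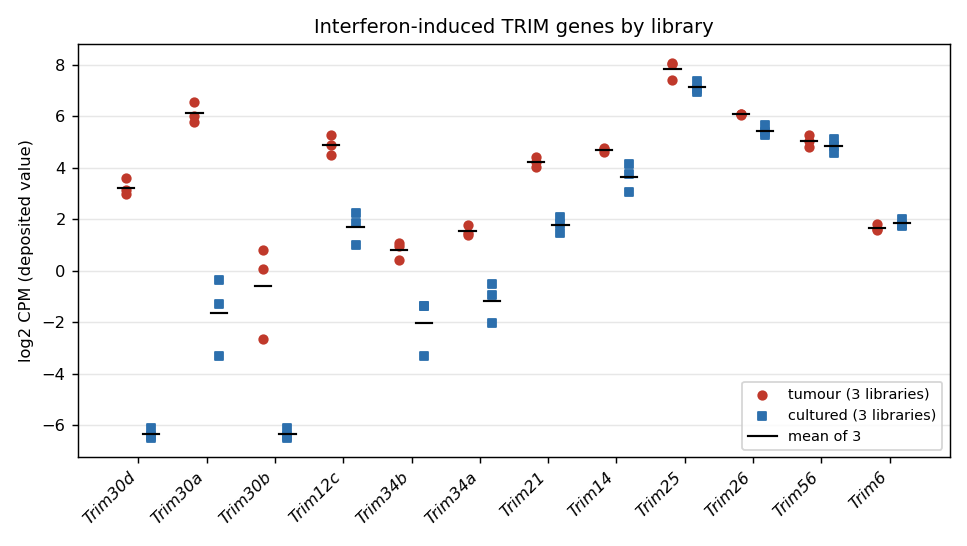
Deposited log2 CPM of the 12 interferon-induced TRIM genes in each library, with tumour libraries as circles, cultured libraries as squares and the mean of 3 as a bar. Groups are apart for the first 10 genes and overlap for Trim56 and Trim6; the lowest squares, of Trim30d and Trim30b, are 0 reads.

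All 6 interferon-induced members with the ISRE core were called higher, with changes of 0.65 to 9.57 and a median of 2.94. Of the 5 with a promoter and no match, Trim6, Trim25, Trim30b, Trim34b and Trim56, 3 were called higher, with a median of 0.71. Trim14 had no promoter to search. Across all genes 29.5% were called higher. Trim30d, with a match, and Trim30b, without one, had no cultured reads, so the filter of the table fixed their direction. The promoter searched for Trim30b lies inside the gene, so its annotated 5′ end was not searched. Promoters of Trim30a and Trim30d were 90.8% identical, so their matches are not independent. Trim34a, with a match, and Trim34b, with none, also share transcript sequence. Of the 50-base stretches of Trim34b, 56.8% occur in Trim34a, so the values of the pair are not cleanly apart. The part of the motif in these changes was not tested. Libraries of a group also differed in a shared way. Tumour library 2 was the lowest tumour library for 10 of the 12 interferon-induced members and for 8 of the 32 others. Cultured library 3 was the lowest cultured library for 8 of the 10 with cultured reads and for 17 of the 32 others. Medians of the 12 were 4.55, 4.24 and 4.41 log2 CPM in tumour libraries 1, 2 and 3, and 1.80, 1.91 and 1.22 in cultured libraries 1, 2 and 3. Medians of 30 other interferon response genes were 6.12, 5.62 and 5.88 in tumour libraries and 2.94, 2.45 and 1.77 in cultured ones. Macrophage markers had medians of 9.14, 8.70 and 9.34 in tumour libraries and -2.03, -2.50 and -3.31 in cultured ones. Their part in these orders was not tested.

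Summed over the family, TRIM genes took 1991, 2032 and 1999 CPM in tumour libraries against 2193, 2090 and 2267 CPM in cultured ones. Interferon-induced members made up 28.4%, 19.8% and 26.01% of that sum in tumour libraries and 10.3%, 13.1% and 9.36% in cultured ones. The groups did not overlap, though 3 libraries against 3 cannot give an exact permutation p below 0.1. Trim28 alone made up 19.96%, 23.9% and 21.1% in tumour libraries against 18.7%, 19.8% and 33.5% in cultured ones.

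Among the others, those with the largest rises were expressed at a low level. Trim29, also called ATDC, a RING-less protein of basal epithelium, stood at 1.14, 1.08 and 1.06 CPM in tumour libraries against 0.0235, 0.133 and 0.0574 CPM in cultured ones. Its change was 3.95 (SE 0.55, limma adjusted p = 0.000665), on 126 tumour reads and 9 cultured reads. Trim72, also called MG53, which seals membrane tears in muscle fibres, stood at 1.19, 0.320 and 0.712 CPM in tumour libraries against 0.0469, 0 and 0.0287 CPM in cultured ones. Over its 3 cultured reads the ratio of CPM was 29.8 (95% counting interval 9.84 to 147; limma adjusted p = 0.00204), and 617 of its exon bases overlap an antisense gene. With so few cultured reads, the filter of the table fixed the direction of both Trim29 and Trim72. Of 10 skeletal muscle markers 5 were tested and 3 called higher (60%, against 29.5% of all genes). The 5 summed to 7.36 to 10.5 CPM in tumour libraries against 0.508 to 1.35 CPM in cultured ones, and none was at 0 in culture. The part of muscle cells in the change of Trim72 was not tested. The muscle RING finger genes Trim54, Trim55 and Trim63 were not analysed here.

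Trim62, or DEAR1, a regulator of epithelial polarity in mammary acini, stood at 3.12, 2.78 and 2.98 CPM in tumour libraries against 0.375, 0.817 and 0.345 CPM in cultured ones. Its change was 2.61 (SE 0.40, limma adjusted p = 0.0012). Trim69, a testis-rich member reported to respond to interferon in human cells, stood at 0.922, 0.837 and 0.791 CPM in tumour libraries against 0.282, 0.177 and 0.0287 CPM in cultured ones, a change of 2.69 (SE 0.69, limma adjusted p = 0.0145). It had 21 cultured reads, and no gene in the table had fewer than 61 reads in all. The filter of the table therefore fixed the direction of Trim69 in the deposited values as well. After quantile normalization the calls for Trim29, Trim62, Trim69 and Trim72 were lost, and the changes of Trim69 and Trim72 turned to -1.25 and -0.23. The better expressed members called higher were Trim3 and Trim24. Trim3, an NHL member that restrains growth in brain, stood at 35.1, 34.7 and 36.9 CPM in tumour libraries against 18.5, 20.1 and 22.4 CPM in cultured ones, a change of 0.81 (SE 0.16, limma adjusted p = 0.00411).

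**Figure D4:**
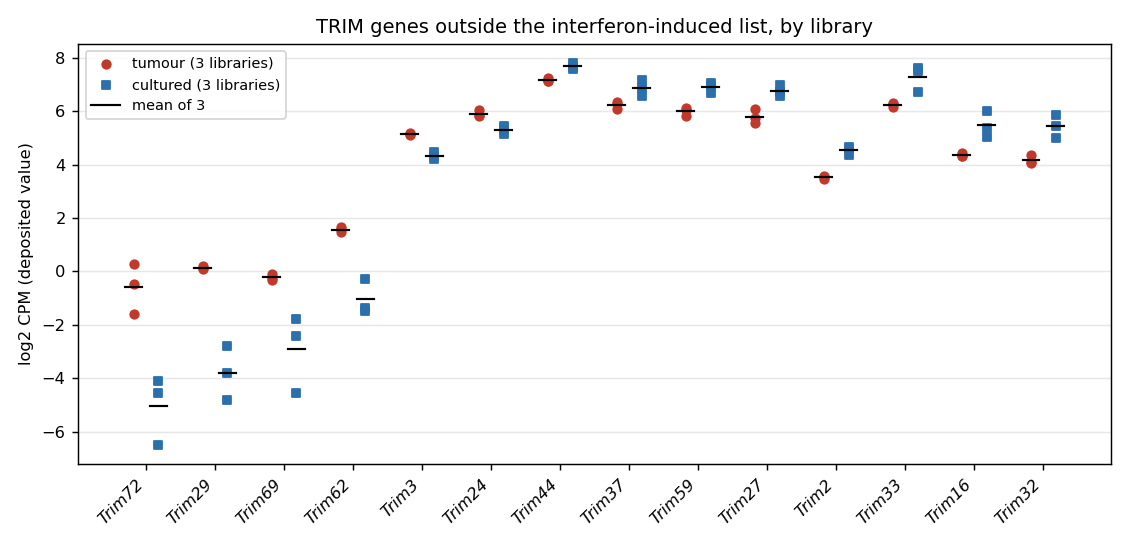
Deposited log2 CPM in each library of the 14 other TRIM genes with the largest called changes, tumour libraries as circles, cultured libraries as squares and the mean of 3 as a bar. The 6 higher in tumour libraries stand at the left, 4 of them at or below 3.12 CPM, and the 8 lower ones at the right, all at 10.96 CPM or more in every library.

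The PHD and bromodomain members did not share a direction. Trim33, or TIF1-gamma, a ligase that limits SMAD4 in TGF-beta signalling, stood at 79.2, 76.4 and 72.3 CPM in tumour libraries against 199, 184 and 106 CPM in cultured ones, a change of -1.05 (SE 0.24, limma adjusted p = 0.00861), with cultured library 3 nearest to the tumour libraries. Trim24, or TIF1-alpha, a histone reader and coregulator of nuclear receptors, stood at 56.8, 58.1 and 66.5 CPM in tumour libraries against 43.5, 40.0 and 35.1 CPM in cultured ones. Its change was 0.61 (SE 0.15, limma adjusted p = 0.0131), and the call ended without tumour library 3 (change 0.54, adjusted p = 0.0769, in a range of 0.00641 to 0.0769 over 14 alternatives), with median centring (0.061) and with plain totals (0.06). Trim28, or KAP1, the corepressor that KRAB zinc finger proteins recruit to silence retroelements, had the highest level per length of the family, 105 CPM per kilobase of exon in tumour libraries and 127 in cultured ones. It stood at 397, 485 and 422 CPM in tumour libraries and 409, 413 and 760 CPM in cultured ones, so cultured library 3 alone was high. The change was -0.22 (95% interval -0.83 to 0.39, limma adjusted p = 0.52), and 0.075 without cultured library 3. Trim66, a testis-rich relative, stood at 3.72, 2.98 and 3.43 CPM in tumour libraries and 3.33, 9.298 and 3.56 CPM in cultured ones, so cultured library 2 alone was high, with a change of -0.51 (limma adjusted p = 0.352).

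Of 14 genes whose proteins work with TRIM28 in heterochromatin, 4 were called lower (28.6%) and 0 higher. The median change of the 14 was -0.31. Across all genes 18.8% were called lower and 48.2% in either direction, so fewer of the list were called than of all genes. Those called lower were Cbx5, which encodes heterochromatin protein HP1-alpha (change -1.14), the DNA methyltransferase gene Dnmt1 (-1.08), the remodeller gene Smarcad1 (-0.82) and the histone deacetylase gene Hdac2 (-0.57). The histone methyltransferase gene Setdb1, the partner of TRIM28 in silencing, did not pass, at a change of -0.28 (limma adjusted p = 0.24).

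Among NHL members Trim32 and Trim2 were lower. Trim32, mutated in a human limb-girdle muscular dystrophy, spans 65604986 to 65616238 on chromosome 4 and stood at 16.7, 20.3 and 17.2 CPM in tumour libraries against 57.5, 43.8 and 32.4 CPM in cultured ones. Its change of -1.27 (SE 0.24, limma adjusted p = 0.00317) was the largest fall in the family. Trim2, a ligase for the light neurofilament chain, stood at 10.96, 11.96 and 11.7 CPM in tumour libraries against 20.8, 25.4 and 24.1 CPM in cultured ones, a change of -1.02 (SE 0.18, limma adjusted p = 0.00245). Trim71, a let-7 target of stem cells, was near the lower limit of the table, at 0.618 ± 0.199 CPM in tumour libraries and 0.649 ± 0.402 CPM in cultured ones (SD, n = 3 each), with a change of 0.07 (limma adjusted p = 0.923).

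The other members called lower came from several subfamilies. Trim16, a RING-less protein that responds to damaged endomembranes, stood at 20.1, 21.7 and 19.8 CPM in tumour libraries against 41.8, 32.5 and 64.9 CPM in cultured ones, a change of -1.12 (SE 0.26, limma adjusted p = 0.00877). Trim27, known as the human partner of the RET fusion oncogene, stood at 53.2, 67.2 and 47.4 CPM in tumour libraries against 127, 106 and 96.3 CPM in cultured ones, a change of -0.98 (SE 0.19, limma adjusted p = 0.00348). Trim59, which has a transmembrane segment, stood at 57.3, 67.0 and 69.6 CPM in tumour libraries against 123, 133 and 104 CPM in cultured ones, a change of -0.89 (SE 0.16, limma adjusted p = 0.00243). The groups of all 3 were apart, with cultured values more spread than tumour values for Trim16.

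The 3 smallest falls lost their call under several alternatives, with the direction kept in each. Trim37, the MATH-domain ligase of peroxisomes and centrioles, stood at 67.4, 82.1 and 76.8 CPM in tumour libraries against 116, 94.2 and 145 CPM in cultured ones, a change of -0.63 (SE 0.19, limma adjusted p = 0.0262). Its call ended without cultured library 1 (adjusted p = 0.0597), tumour library 1 (0.107) or tumour library 3 (0.079), with changes of -0.64, -0.56 and -0.65, and without the variance trend (0.0502), in a range of 0.00694 to 0.427 over 14 alternatives. Trim44, a RING-less member that carries a ubiquitin-binding zinc finger, stood at 139, 154 and 142 CPM in tumour libraries against 224, 193 and 203 CPM in cultured ones, a change of -0.51 (SE 0.14, limma adjusted p = 0.0167). Its call ended without tumour library 1 (adjusted p = 0.0859) or 3 (0.0829), with changes of -0.48 and -0.49, in a range of 0.00303 to 0.562. Trim35, named MAIR in mouse macrophages, was chosen after its values were seen because it completes the 9 lower members. It averaged 111 ± 13.6 CPM in tumour libraries and 148 ± 5.56 CPM in cultured ones (SD, n = 3 each), a change of -0.42 (SE 0.14, limma adjusted p = 0.0431), and its call ended without tumour library 1 (adjusted p = 0.162), tumour library 3 (0.183), cultured library 1 (0.0826) or cultured library 2 (0.0813), with changes of -0.39, -0.36, -0.41 and -0.40. It also ended without the variance trend (0.0803) and with voom weights (0.0511), in a range of 0.00702 to 0.755. When libraries were scaled to epithelial genes, the calls for Trim16, Trim35, Trim37 and Trim44 ended.

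The 17 others that did not pass were Trim28, Trim66 and Trim71 and 14 more, Trim7, Trim8, Trim11, Trim13, Trim23, Trim36, Trim39, Trim41, Trim43c, Trim45, Trim46, Trim47, Trim65 and Trim68. Their changes lay between -0.71 and 0.73, with limma adjusted p of 0.12 to 0.984. Of all 19 members that did not pass, 6 passed with the direction of the main fit under at least 1 alternative. A change of the other sign under at least 1 was seen for 16. Some passed only with that other sign, among them Trim13, Trim36 and Trim71 (lowest limma adjusted p of 0.0061, 0.00602 and 0.00107). The tumour libraries were all above the cultured ones for Trim43c, of which 58.6% of 50-base stretches also occur in other genes. Trim47 and Trim65 share exon bases on the same strand of chromosome 11.

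**Figure D5:**
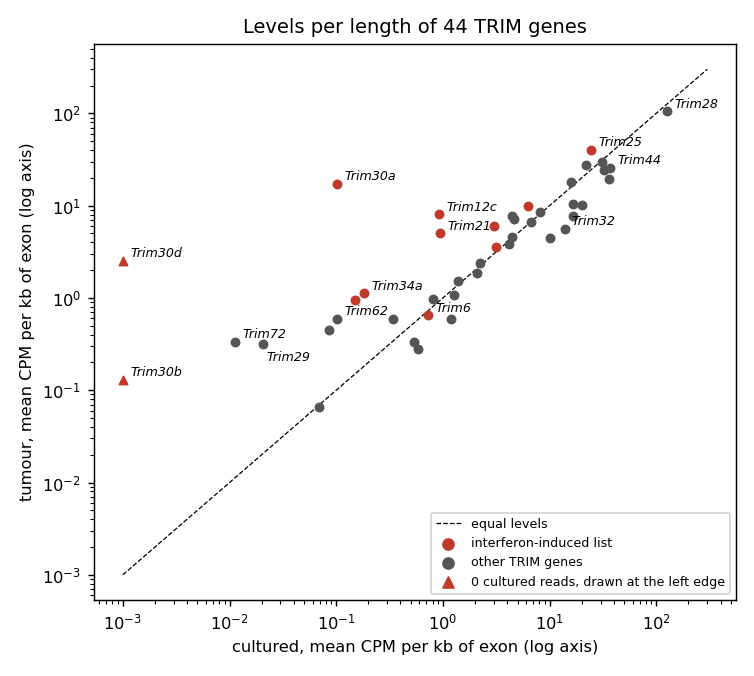
Mean level per length, in CPM per kilobase of exon on log axes, of the 44 TRIM genes, tumour libraries on the vertical axis and cultured libraries on the horizontal one. Most genes lie near the line of equal levels, up to Trim28 at 105 in tumour libraries and 127 in cultured ones, while Trim30a stands far above it, at 17.2 and 0.102.

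Family members under other symbols varied as much. Mefv, which encodes pyrin (TRIM20), an inflammasome sensor of myeloid cells, stood at 118, 27.3 and 97.3 CPM in tumour libraries against 4 reads in all in culture, a fitted change of 10.88 (SE 0.83, limma adjusted p = 2.35e-05) whose direction was fixed by the filter of the table. Tumour library 2 was again the lowest. Mid2, a microtubule-binding ligase, was called lower, at 5.53 ± 1.06 CPM in tumour libraries and 14.5 ± 6.06 CPM in cultured ones (SD, n = 3 each), a change of -1.32 (limma adjusted p = 0.0123). Pml, Mid1 and Rnf207 did not pass; Pml, the scaffold of nuclear bodies, stood at 40.0 ± 1.22 CPM in tumour libraries and 33.2 ± 4.75 CPM in cultured ones (SD, n = 3 each).

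Genes of the interferon pathway in which these ligases act were counted by list. Across all genes 29.5% were called higher and 18.8% lower. All 14 genes of interferon signalling, which are receptors, kinases, transcription factors and feedback inhibitors, were called higher, with a median change of 1.97, with the inhibitor gene Usp18 (4.55) and the transcription factor genes Irf8 (3.66) and Stat2 (2.71) among them. Of 30 interferon response genes outside the family 28 were called higher and 0 lower, with a median change of 3.26, led by Gbp5 (8.33), Mx1 (7.68), Ifi44 (6.78) and Gbp7 (6.63). Mx1 had 7 cultured reads in all, so the filter of the table fixed its direction. Of 18 genes of RNA and DNA sensing 7 were called higher (38.9%) and 5 lower (27.8%), with a median of 0.40. Irf7 (change 5.06) and the RIG-I-like receptor gene Dhx58 (3.53) were called higher, as were Tmem173, which encodes STING (2.56), and the RNA sensor gene Ifih1 (1.64). The largest fall of the list was that of Mb21d1, which encodes the DNA sensor cGAS upstream of STING (-1.06, limma adjusted p = 0.00103). Ddx58, which encodes RIG-I, the substrate of TRIM25, stood at 62.6 ± 6.59 CPM in tumour libraries and 77.3 ± 48.5 CPM in cultured ones (SD, n = 3 each), a change of -0.13 (limma adjusted p = 0.819). Mavs, the adaptor downstream of RIG-I, was called lower at -0.56 and Usp15, a deubiquitinase that stabilises TRIM25, at -0.94.

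Of 12 ubiquitin conjugation genes that many ligases use, 2 were called higher and 2 lower (33.3% in all, against 48.2% of all genes). The median change of the 12 was 0.03. The ubiquitin precursor gene Ubb rose by 1.13 on the log2 scale, and the conjugating enzyme genes Ube2k and Ube2e1 had changes of -0.83 and -0.59. Those that did not pass included Uba1, the ubiquitin-activating enzyme, at a change of -0.41 (limma adjusted p = 0.142).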

How the data were processed

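RNA of 6 libraries was compared. The submitters' processing notes name HISAT, HTSeq, limma and mm10 without versions. The authors deposited log2 CPM in the form of limma's voom, with 0.5 reads added and library totals scaled by TMM. Solving that form for reads gave whole numbers within 0.01 in 100% of cells. CPM here are those reads over the scaled total. Tumour and cultured libraries were set against each other in limma 3.58.1 (R 4.3.3), with a variance trend, two-sided, with Benjamini-Hochberg adjustment over 13912 genes. The fit was tested on simulated reads with changes planted only in genes with many reads. That test does not cover members with few or no reads in a group. Count models were not run because the deposited unit is log2. Members and lists were chosen with earlier results of these data known. Members were named by rule: every interferon-induced member, the 14 others with the largest called changes and groups apart, PHD, NHL and muscle members, and the 3 highest per length. Companion lists name up to 4 called genes; Mavs, Usp15, Mb21d1, Ddx58, Setdb1, Uba1 and Pml were added for their roles after their values were seen, and some called genes are not reported here. Coordinates and exon lengths came from GENCODE M21 (GRCm38), which held all 44 members. Alternatives were other scalings, weights, filters, lists and leaving out each library. Without molecular identifiers reads are not independent molecules, so intervals and floors on reads cover only counting error.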

Additional observations from a re-analysis of the deposited data

How the results depend on the processing

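Of the 25 called members, 11 kept call and direction under all 14 alternatives: Trim12c, Trim21, Trim26, Trim30a, Trim30d and Trim3, which were higher in tumour libraries, and Trim2, Trim27, Trim32, Trim33 and Trim59, which were lower. For Trim30d, with 0 cultured reads, the filter of the table fixed the direction, so its place among them tests nothing. The median change of all genes, 0.08 as deposited, shifted by -0.22 with median centring, -0.40 with quantile normalization, -0.15 with plain totals and 0.33 with epithelial scaling. Reversals are listed for the members named by rule; of all 19 members that did not pass, 16 changed sign under at least 1 alternative. Quantile normalization gave 9 members higher and 19 lower, with 1 interferon-induced member lower (Trim6, -1.91), others 2 higher and 18 lower, and medians of 0.67 for interferon-induced members and -0.75 for others. It reversed Trim34b (-0.11), Trim69 (-1.25), Trim72 (-0.23) and Trim71 (-3.58). Epithelial scaling gave 5 members lower, all 5 among the others, medians of 2.90 for interferon-induced members and 0.33 for others, and reversed Trim28 (0.11) and Trim6 (0.17). Median centring gave a median of -0.23 for others and reversed Trim56 (-0.028) and Trim71 (-0.15), and plain totals reversed Trim71 (-0.083). Among genes with a higher group mean of at least 1 log2 CPM, 3 others were higher and the interferon-induced median was 1.75, since low members were left out. The wider interferon list held 1 lower member, Trim35. Leaving out 1 library gave interferon-induced medians of 2.22 to 2.80, Trim28 changes of -0.37 to 0.075 and Trim71 changes of -0.37 to 0.53. Where not stated, the cause was not tested. No paired analysis was possible because the label numbers differ between the groups. At these depths counting error limits Trim29, Trim30b, Trim69, Trim71 and Trim72.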
